A study of Saccharomyces cerevisiae with 4 samples.

Results

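The lower part of glycolysis in budding yeast, from aldolase to pyruvate kinase, was examined through 10 genes named in the probe annotation: FBA1, TPI1, TDH1, TDH2, TDH3, PGK1, GPM1, ENO1, ENO2 and CDC19. They are 10 of the 5539 genes with a named probe on the arrays. They were chosen by gene name and not by their values, though with earlier results of these data known. Of the 10 genes, 8 had a ratio on at least 3 arrays and could be tested, and TPI1 and GPM1 had no ratio on any array. RNA of Saccharomyces cerevisiae recovered with zzMex67, a tagged form of the mRNA export receptor Mex67, was compared with total RNA on 4 two-colour arrays. All 4 arrays form 1 group. Arrays 1 and 2 carried the precipitated RNA in channel 2, and arrays 3 and 4 carried it in channel 1. The labels give no strain, medium, growth stage or source of the tagged protein, and they do not say whether separate cultures were used, so a p-value covers the spread among these 4 arrays only, and that spread may be technical. No precipitation from cells without the tag was analysed here, so binding to the bead or matrix alone has no measured level.

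These enzymes carry out the part of glycolysis that makes ATP and pyruvate. Aldolase splits a hexose bisphosphate into triose phosphates, triose-phosphate isomerase interconverts them, and glyceraldehyde-3-phosphate dehydrogenase, phosphoglycerate kinase, phosphoglycerate mutase, enolase and pyruvate kinase lead from there to pyruvate. In yeast growing on glucose their mRNAs are among the most abundant in the cell. Mex67, together with Mtr2, carries mRNA through the nuclear pore, and adaptor proteins on the mRNA recruit it. The ratio at a spot measures how a transcript was represented in the precipitate relative to its share of total RNA. A ratio cannot tell a difference in the precipitated RNA from one in total RNA.

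Ratios are given as log2 with the median of the tested named genes set to 0 on each array, so a value of 1 lies 2-fold above that median. The labels name a Mex67 binding level, so the ratios are probably precipitate over total RNA, but no source states this; read the other way, each sign below would turn. Arrays of opposite channel assignment correlated above 0 across features (r = 0.756 for arrays 2 and 3 and 0.824 for arrays 2 and 4), and all 4 columns were therefore read as running the same way. If the deposited ratios had been left unturned, dye bias of single spots would also correlate these arrays above 0, and this was not tested. With arrays 3 and 4 turned against arrays 1 and 2, 0 of 596 features passed (limma, 1 at an unadjusted p under 0.05), so every call below rests on this reading.

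Ratios were present for 845, 2467, 973 and 1112 of 12800 probes on arrays 1 to 4. On arrays 2, 3 and 4 there were ratios for 15 of the 20 glycolytic probes (75%), whereas array 1 had ratios for 4 of the 20. Over all probes, 6.60%, 19.3%, 7.60% and 8.69% had a ratio on arrays 1 to 4. By which rule a probe lacks a ratio is not given in the sources used here, and this share says nothing of Mex67 binding. Array 1 stood apart: over the features shared with arrays 2, 3 and 4 it correlated with them at r = 0.127, 0.239 and 0.163 (203, 92 and 106 features). These correlations describe arrays that share probes and were not tested. Of the glycolytic genes, only TDH1 and TDH3 had a ratio on array 1, and their values are given with and without it.

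The tested glycolytic transcripts lay on both sides of the array median, with TDH2 and ENO2 near the middle. Of the 8 tested, TDH1 and ENO1 lay above the array median, FBA1, PGK1 and CDC19 lay below it, and TDH2, TDH3 and ENO2 did not pass (limma's moderated test of the mean against 0, two-sided, Benjamini-Hochberg adjusted p under 0.05 over 596 features). Without array 4, with features then needing values on 2 of 3 arrays, 0 of the 5 calls held (limma, adjusted p = 0.0626 to 0.103), and without array 3 that of ENO1 ended (adjusted p = 0.0569). In limma fits kept to the same 596 features, ENO1 alone lost its call, without array 4 (adjusted p = 0.0636). Their means ran from -3.24 for CDC19 to 2.43 for TDH1, a span of 5.67 on the log2 scale. Of all tested features 22.5% lay above and 25.2% below, or 47.7% on either side, and the 5 of 8 members past the threshold, read against that share, are no result about the group as a whole. The median of the 8 means was -0.47, beside -0.0047 for all tested features. The SD of the 8 means was 2.08, beside 1.45 for the 498 tested named genes, and no test was made of that difference.

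**Figure D1:**
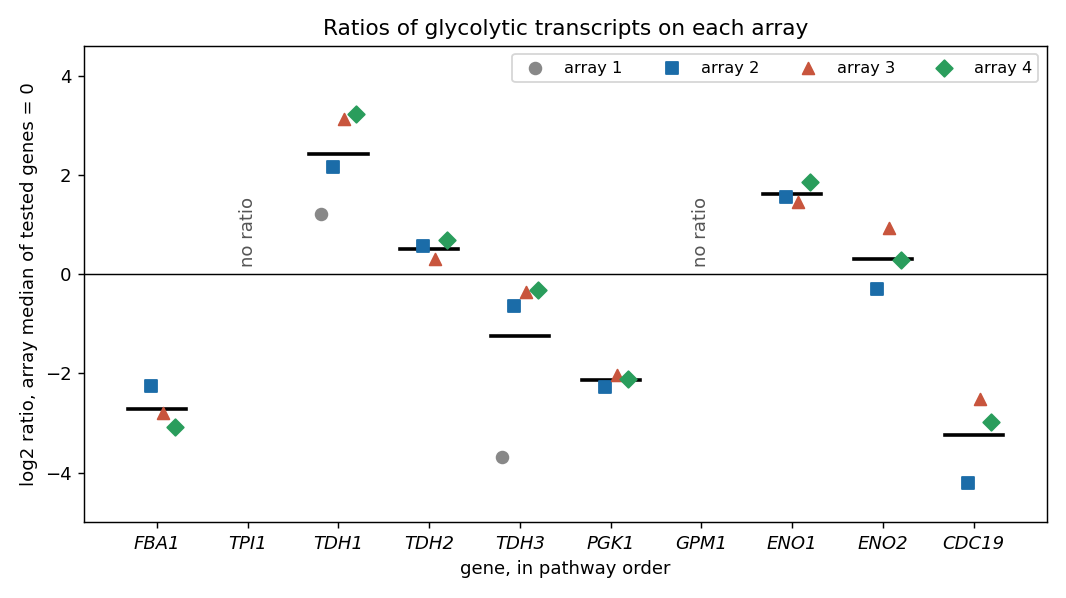
Centred log2 ratio (vertical axis) of each glycolytic gene in pathway order (horizontal axis), 1 symbol per array, with the mean over arrays as a black line. TDH1 and ENO1 sit above 0 and FBA1, PGK1 and CDC19 below 0 on every array with a ratio, TDH3 sits far lower on array 1 than on the other arrays, and TPI1 and GPM1 have no ratio.

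FBA1 codes for fructose-bisphosphate aldolase, the only such enzyme of glycolysis in this yeast. Its log2 ratios were -2.26 on array 2, -2.80 on array 3 and -3.09 on array 4, and array 1 had none. All 3 values lay far below the median, at percentiles 5.24, 4.38 and 2.85 of the tested named genes of the array. The mean was -2.72 ± 0.42 (SD, n = 3), which is 6.57-fold below the median (limma, adjusted p = 0.00444). Of the 498 tested named genes, 16 had a lower mean. The adjacent probes for FBA1 differed more than those of most members, by 0.86, 0.98 and 0.43 on arrays 2 to 4, and both lay below -1.8 on each of these arrays.

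TPI1, for triose-phosphate isomerase, the next enzyme, had 2 probes and no ratio on them. GPM1, for the main phosphoglycerate mutase, likewise had 2 probes without a ratio. Nothing can be said here of how either transcript was represented in the precipitate.

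Glyceraldehyde-3-phosphate dehydrogenase is coded by TDH1, TDH2 and TDH3. TDH3 is the form most expressed in growth on glucose, and TDH1 is known for expression in stationary phase and under stress. TDH1 had log2 ratios of 1.21, 2.16, 3.12 and 3.23 on arrays 1 to 4. All 4 lay above the median, and arrays 3 and 4 gave higher values than arrays 1 and 2, which have the other channel assignment. The mean was 2.43 ± 0.94 (SD, n = 4), or 5.40-fold above the median (limma, adjusted p = 0.00681), and 2.84 ± 0.59 without array 1 (SD, n = 3). Only 23 of the 498 tested named genes had a higher mean.

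TDH2 lay slightly above the median on each of its arrays, at 0.57, 0.30 and 0.68 on arrays 2 to 4. The mean of 0.52 ± 0.20 (SD, n = 3) did not pass (limma, adjusted p = 0.119). TDH3 had -3.69, -0.64, -0.35 and -0.31 on arrays 1 to 4. It was below the median on all 4, by little on arrays 2 to 4 and by far more on array 1. The tested named genes also spread more on array 1 (SD 2.52) than on arrays 2, 3 and 4 (SD 1.51, 1.61 and 1.58). Among them TDH3 lay at percentile 7 on array 1 and at 31.5, 42.7 and 42.4 on arrays 2 to 4. Its mean of -1.25 ± 1.63 (SD, n = 4) did not pass (limma, adjusted p = 0.157), and without array 1 it was -0.44 ± 0.18 (SD, n = 3), with an adjusted p of 0.121 in the limma fit to the same features.

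The 3 dehydrogenase genes kept one order on every array that measured them, TDH1 above TDH2 above TDH3. TDH1 exceeded TDH3 by 4.90, 2.81, 3.48 and 3.54 on arrays 1 to 4, a mean difference of 3.68 ± 0.88 in log2 ratio (SD, n = 4), or 12.8-fold. Without array 1 this difference was 3.27 ± 0.41 (SD, n = 3). TDH1 exceeded TDH2 by 1.59, 2.82 and 2.55 on arrays 2 to 4, a mean of 2.32 ± 0.65 (SD, n = 3). TDH2 exceeded TDH3 by 1.21, 0.65 and 0.99 on the same arrays, a mean of 0.95 ± 0.28 (SD, n = 3). These differences do not depend on where the array median lies. The exact sign-flip permutation test over arrays, two-sided, gave p = 0.125 for TDH1 against TDH3 and p = 0.25 for the other pairs of dehydrogenase genes, the smallest values that 4 and 3 arrays allow; adjusted over the 4 isozyme pairs each p was 0.25. The TDH genes are close in sequence, and a spot for one of them can take up labelled cDNA of another. How much signal the spots shared was not tested, as no probe sequences were used.

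**Figure D2:**
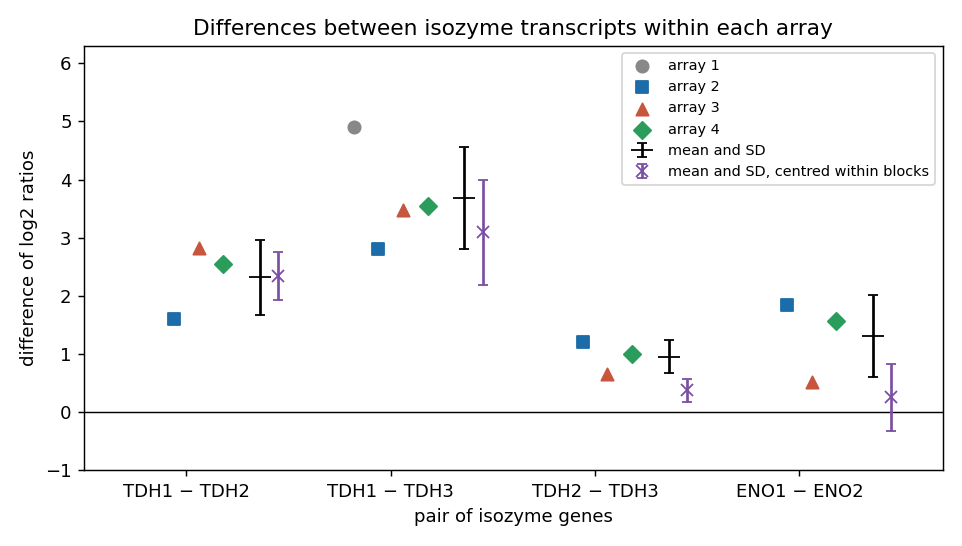
Difference of log2 ratios (vertical axis) between the genes of 4 isozyme pairs (horizontal axis), 1 symbol per array, with the mean and SD over arrays in black and, in purple, the mean and SD after centring within blocks of probes. TDH1 exceeds TDH3 by 2.81 to 4.90, and the difference of ENO1 and ENO2 falls to 0.25 under the block centring.

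PGK1 codes for phosphoglycerate kinase, which makes the first ATP of this part of the pathway. Its ratios were -2.27, -2.03 and -2.12 on arrays 2 to 4. Relative to the array median, the 3 arrays differed by less than for any other member. The mean was -2.14 ± 0.12 (SD, n = 3), 4.41-fold below the median (limma, adjusted p = 0.00444), and 36 of the tested named genes had a lower mean. The median SD over arrays of all tested named genes was 0.51. After centring within blocks of probes the SD of PGK1 was 0.53. TDH2, ENO1, ENO2 and FBA1 then had lower SDs (0.17, 0.27, 0.30 and 0.52). TDH1, TDH3 and CDC19 had higher ones (0.92, 1.63 and 0.67). In the block that holds PGK1, 80.25%, 31.25% and 43.5% of probes had a ratio on arrays 2 to 4. Over all probes it was 19.3%, 7.60% and 8.69%.

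Enolase is coded by ENO1 and ENO2, of which ENO2 is the form induced by glucose. ENO1 had 1.55, 1.45 and 1.86 on arrays 2 to 4. All 3 lay above the median, with a mean of 1.62 ± 0.21 (SD, n = 3), 3.07-fold above it (limma, adjusted p = 0.00722). Centred within blocks of 400 consecutive probes, ENO1 had 0.26 and did not pass (limma, adjusted p = 0.460). ENO2 had -0.30, 0.93 and 0.29 on the same arrays, so that array 2 lay below the median and the other two above it. Its mean of 0.31 ± 0.62 (SD, n = 3) did not pass (limma, adjusted p = 0.457). ENO1 exceeded ENO2 on each of the 3 arrays, by 1.85, 0.51 and 1.57, a mean of 1.31 ± 0.70 (SD, n = 3; exact sign-flip permutation test, two-sided, p = 0.25, the smallest possible), and of 0.25 under the block centring.

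CDC19 codes for the main pyruvate kinase, the last step and the one that makes the second ATP. Its ratios were -4.21 on array 2, -2.52 on array 3 and -2.99 on array 4. It was the lowest of all members on array 2 and by its mean, which was -3.24 ± 0.87 (SD, n = 3), 9.43-fold below the median (limma, adjusted p = 0.00575), and 9 of the 498 named genes lay lower. This value joins different spots: the value on array 2 came from one probe of the gene and those on arrays 3 and 4 from the other. With probes kept apart neither was measured on 3 arrays, and CDC19 then had no test.

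In order of their means the members ran CDC19, FBA1, PGK1, TDH3, ENO2, TDH2, ENO1 and TDH1. Relative to the array median, PGK1 and TDH3 were separated on each of arrays 2 to 4, by 1.63 to 1.81. So were TDH3 and ENO2 by 0.34 to 1.29, TDH2 and ENO1 by 0.98 to 1.17, and ENO1 and TDH1 by 0.61 to 1.68. For the other neighbours the order varied between arrays. FBA1 exceeded CDC19 on 1 of 3 arrays (mean difference 0.52 ± 1.24, SD) and TDH2 exceeded ENO2 on 2 of 3 (0.21 ± 0.77, SD), both within their spread. PGK1 exceeded FBA1 on 2 of 3 arrays (0.57 ± 0.52, SD), with the third at -0.011. Across the 8 members, arrays 2, 3 and 4 correlated at r = 0.932 (arrays 2 and 3), 0.961 (arrays 2 and 4) and 0.989 (arrays 3 and 4), as a description of arrays that share probes. Under the block centring PGK1 stayed below TDH3, and ENO1 below TDH1, on each of arrays 2 to 4. ENO2 (-0.28) then lay below TDH3 (0.16) on array 2 and above it on arrays 3 and 4. ENO1 lay above TDH2 on array 2 (0.55 and 0.31) but below it on array 4 (0.23 and 0.26). On array 3 the block medians of ENO1 and TDH2 were their own ratios.

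**Figure D3:**
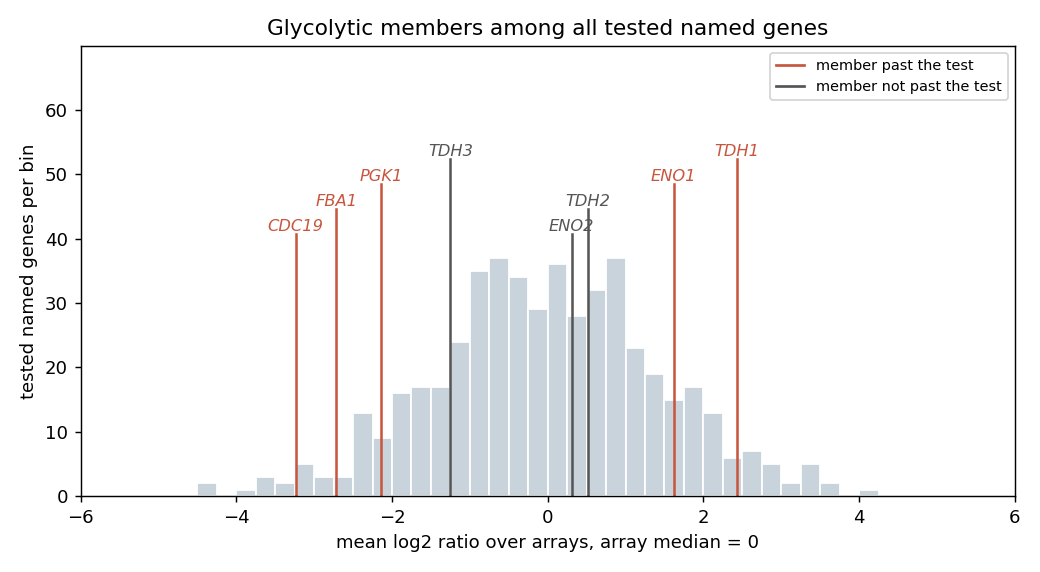
Histogram of the mean log2 ratio (horizontal axis) of the 498 tested named genes (vertical axis, genes per bin), with the 8 tested glycolytic genes as vertical lines, red for those past the test and grey for the others. CDC19, FBA1 and PGK1 stand in the lower tail, TDH1 in the upper, and TDH2 and ENO2 near the middle.

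The 2 probes of a member mostly gave close ratios within an array. On array 2, however, those of FBA1, ENO1 and TDH1 differed by 0.86 to 1.32. Each member had 2 adjacent probes, and for the 23 cases in which both had a ratio they differed by 0.14 log2 in the median, with a range of 0.0031 to 1.32. Over all named genes with 2 measured probes the median difference was 0.49, 0.53, 0.36 and 0.35 on arrays 1 to 4. The 3 dehydrogenase genes were read closely by both probes on array 3, where TDH1 gave 3.11 and 3.14, TDH2 0.30 and 0.30 and TDH3 -0.31 and -0.40. The widest gap was for TDH1 on array 2, at 2.83 and 1.50, followed by ENO1 on array 2, at 2.10 and 1.00. Adjacent here means consecutive probe numbers, and the slide layout was not used. If such probes also lie side by side on the slide, a local error would move both.

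**Figure D4:**
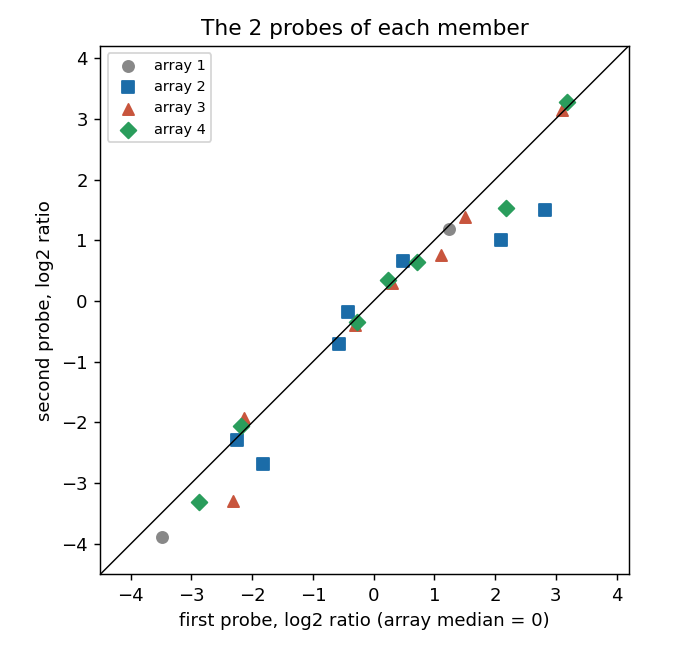
Centred log2 ratio of the first probe (horizontal axis) and of the second probe (vertical axis) of each member with both measured, 1 symbol per array, with the line of equality. Most of the 23 points lie near the line, and TDH1 on array 2 lies farthest from it.

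Some of these values changed with another centring, and the cause was not tested. Centred within blocks of 400 consecutive probes instead of on the whole array, CDC19 had -3.17 ± 0.67, FBA1 -2.28 ± 0.52 and PGK1 -1.58 ± 0.53 (SD, n = 3 each), TDH1 had 2.10 ± 0.92 (SD, n = 4), and these 4 calls held (limma, adjusted p = 0.00558, 0.00716, 0.0196 and 0.0115). ENO1 fell to 0.26 ± 0.27 (SD, n = 3) and its call ended (limma, adjusted p = 0.460). The block that holds ENO1 had medians of 1.01, 1.45 and 1.63 on arrays 2 to 4, over 46, 32 and 31 probes. The ratios of ENO1 on these arrays were 1.55, 1.45 and 1.86. Relative to its block ENO1 had 0.55 on array 2 and 0.23 on array 4. On array 3 the block median was the mean of the probes of ENO1 itself, so its block-centred value there was fixed. TDH1 and ENO2 lie in the same block, whose medians were -0.016, 0.61 and 0.31 on arrays 2 to 4, and TDH1 exceeded ENO2 on each array there. The difference of ENO1 and ENO2 was 0.25 ± 0.57 under the block centring (SD, n = 3), with array values of -0.32 to 0.83, and that of TDH2 and TDH3 was 0.38 ± 0.20 (SD, n = 3). TDH1 still exceeded TDH2 by 2.34 ± 0.42 (SD, n = 3) and TDH3 by 3.09 ± 0.90 (SD, n = 4). For TDH2 too the block median on array 3 was its own ratio, 0.30. Each block-centred mean or difference with ENO1 or TDH2 therefore includes such a fixed value.

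**Figure D5:**
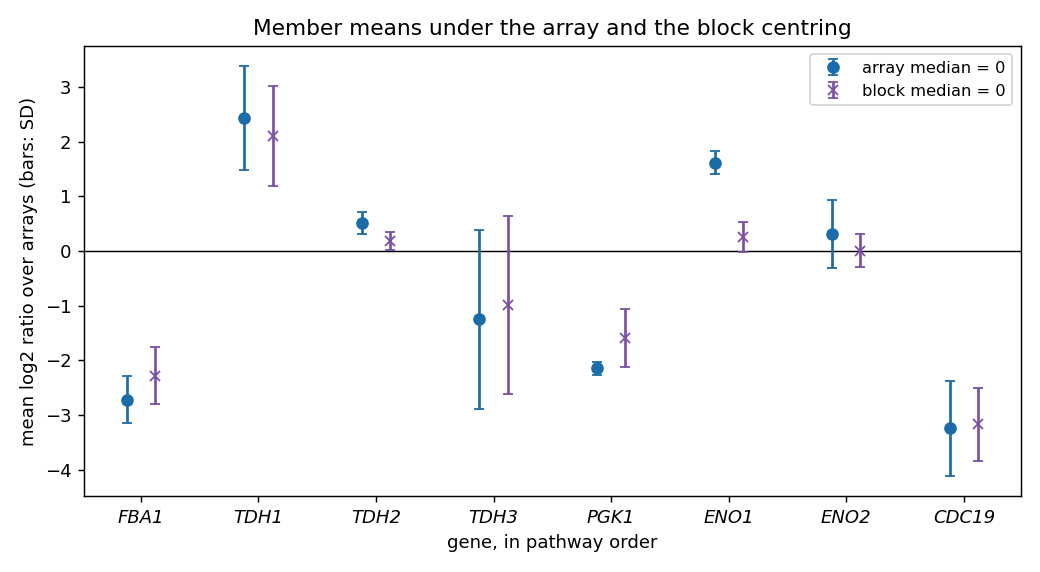
Mean log2 ratio over arrays with SD (vertical axis) of the 8 tested members (horizontal axis), relative to the array median (blue circles) and to the median of the block of 400 consecutive probes that holds the gene (purple crosses). ENO1 moves from 1.62 to 0.26, and CDC19, FBA1 and PGK1 stay below 0 and TDH1 above 0.

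The array titles share 2 numeric codes of unstated meaning: arrays 1 and 3 have the one called code A here, arrays 2 and 4 the other, code B. For 6 members code A rests on array 3 alone. In code A and code B the means were -2.80 and -2.67 for FBA1, -2.03 and -2.19 for PGK1, -2.52 and -3.60 for CDC19, 1.45 and 1.70 for ENO1, and 2.17 and 2.70 for TDH1, each on one side in both. Without array 1, code A holds array 3 alone, at 3.12 for TDH1, which is above code B. ENO2 was at 0.93 in code A and -0.0054 in code B. By channel assignment, TDH1 had a mean of 1.69 with the precipitate in channel 2 and 3.18 with it in channel 1, and TDH3 had -2.17 and -0.33. Without array 1, channel 2 rests on array 2 alone, at 2.16 for TDH1 and -0.64 for TDH3. FBA1, TDH2, PGK1, ENO1 and CDC19 were on the same side under both assignments, and ENO2 was not, at -0.30 with the precipitate in channel 2 and 0.61 with it in channel 1. The difference between assignments was not tested; with a term for it, the same 5 members passed.

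Few of the other genes of the pathway were measured. Of 36 names listed for upper glycolysis, fermentation, glycerol synthesis, gluconeogenesis, paralogs of the lower enzymes and regulators, 34 matched a probe symbol. The names RHR2 and HOR2 matched none, which does not show that a gene was absent from the arrays. Of the 36 names, 13 had a ratio on any array and 5 were tested. Of these 5, ADH1 and PDC6 lay above the median, ADH2 lay below it, and HXK2 and PDC1 did not pass. With 47.7% of all tested features past the threshold, 3 of 5 is no result about these genes as a group. In upper glycolysis only the hexokinase gene HXK2 was tested of 6 genes, at 1.42, -1.81 and 2.12 on arrays 2 to 4. The arrays disagreed, and the mean of 0.58 ± 2.09 (SD, n = 3) did not pass (limma, adjusted p = 0.608). None of the 6 paralogs, 4 gluconeogenic genes and 6 regulators was tested. In the steps after pyruvate, 4 of 8 genes with a probe were tested, and of the 4 glycerol synthesis genes with a probe none had a ratio. ADH1, the main alcohol dehydrogenase of fermentation, lay above at 2.56 ± 1.48 (SD, n = 4; limma, adjusted p = 0.0181), with 0.36 on array 1 and 2.98 to 3.58 on arrays 2 to 4. Its call ended without array 2, 3 or 4 in limma fits to the same features (adjusted p = 0.0686, 0.0631 and 0.0636) and when only the 80 features complete on the 4 arrays were fitted (adjusted p = 0.0547). Under the block centring ADH1 had 1.31 ± 0.81 (SD, n = 4) and still passed (limma, adjusted p = 0.0332). ADH2, the dehydrogenase that consumes ethanol, lay below at -1.90 ± 0.28 (SD, n = 3; limma, adjusted p = 0.00575). The pyruvate decarboxylase gene PDC6 lay above at 2.01 ± 0.71 (SD, n = 3; limma, adjusted p = 0.0128), and under the block centring PDC6 had 0.38 and ADH2 -0.85, where neither passed (limma, adjusted p = 0.543 and 0.0830). PDC1, the main pyruvate decarboxylase gene, was at -3.72 on array 1 and between -0.051 and 0.47 on the others, and did not pass (mean -0.79 ± 1.97, SD, n = 4; limma, adjusted p = 0.417). In limma fits to the same features, PDC1 had 0.19 without array 1, HXK2 passed without array 3 at 1.77 (adjusted p = 0.0430) and had -0.19 without array 4, and the calls of PDC6 and ADH2 ended without array 4 (adjusted p = 0.0512 and 0.0504).

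The genes whose ratios were nearest to those of TDH1 and of CDC19, the members that passed with the highest and the lowest mean, were found by the root mean square difference over the arrays of the member. For TDH1, over 4 arrays and 71 genes, these were RPS27B (difference 0.53), RPL40A (0.72) and ADH1 (0.83), a ribosomal protein gene, a gene for a fusion of ubiquitin with a ribosomal protein, and the dehydrogenase above. For CDC19, over arrays 2 to 4 and 463 genes, they were ECM33 (0.49), RPL2B (0.50) and NAB3 (0.51), which code for a cell wall protein, a ribosomal protein and an RNA-binding protein of transcription termination. Arrays this few place many genes at a like distance.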

How the data were processed

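The deposited values are log10 ratios of the 2 channels, 1 per probe and array; how the authors corrected background, normalized or dropped values is not given in the sources used here. Their base was read from the values: 677 of the 845 log10 ratios deposited for array 1 match a quotient of integers (denominators up to 2000, relative tolerance 2e-09) when raised from base 10, against 10 values from base 2; for arrays 2, 3 and 4 it was 661 of 2467, 30 of 973 and 142 of 1112, against 23, 3 and 4. Array medians were -0.96, 0.46, -1.12 and -0.52, so the arrays were not centred; signal over background was not used here.

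Gene symbols came from GEO's platform annotation (11138 with 1 symbol, 0 with several, 1662 with none); the symbols of all 20 member probes matched those of the reference gene table (R64) through Entrez identifiers. Repeated rows (2) were averaged. Probes of 1 gene were averaged as log2 ratios. Features with values on at least 3 arrays (498 genes, 98 unnamed probes) entered the fit. The median of the tested genes, 100, 496, 480 and 491 on arrays 1 to 4, was subtracted per array. limma 3.58.1 in R 4.3.3 tested the mean against 0; other steps used Python 3.11.15 with scipy 1.17.1, numpy 2.4.6, matplotlib 3.10.9 and pandas 2.3.3. A missing array was dropped, not imputed. The fit was tested on simulated ratios. Members, lists and alternatives were chosen with earlier results of these data known. The genes named are the members, the listed pathway genes with values on 3 arrays, and the 3 nearest genes of the highest and lowest members past the test. The precision is limited by the number of arrays.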

Additional observations from a re-analysis of the deposited data

Results flagged for a closer look

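For TDH3 the value on array 1, -3.69, stood apart from those on the other 3 arrays, with a gap to its neighbour above the 95% critical value of Dixon's test for 4 values. PDC1 was likewise lowest on array 1, at -3.72, and array 2 stood apart in the number of probes with a ratio, 2467. The test was made on 6 sets of 4 values, and chance gives about 1 such case in 20. The cause was not tested.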

How the results depend on the processing

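The calls rest on the centring and on the reading of the direction. Without centring, which left array medians of -1.71, 1.74, -3.71 and -1.61, 0 features lay above and 0 below (limma, 52 at an unadjusted p under 0.05), with 0 glycolytic genes called on either side, and TDH2, ENO2 and HXK2 reversed to -0.68, -0.89 and -0.62. With arrays 3 and 4 turned, the counts were again 0 and 0 (limma, 1 at an unadjusted p under 0.05), with 0 glycolytic genes above and 0 below; TDH1, TDH2, ENO1 and ENO2 turned to -0.74, -0.14, -0.59 and -0.51, CDC19, FBA1 and PGK1 to 0.43, 1.21 and 0.63, and ADH1, PDC6 and ADH2 to -0.58, -0.98 and 0.46. The isozyme differences then were -1.26 (TDH1 minus TDH2), 0.17 (TDH1 minus TDH3), -0.14 (TDH2 minus TDH3) and -0.077 (ENO1 minus ENO2).

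Centred within blocks, 107 features lay above and 99 below, against 134 and 150, with 1 glycolytic gene above and 3 below; TDH2 minus TDH3 was 0.38 and ENO1 minus ENO2 0.25. Fitted to the 80 features on all 4 arrays, 9 lay above and 7 below, with TDH1 above, 0 glycolytic genes below and only TDH1 and TDH3 measured. With the arrays of a title code averaged HXK2 had -0.019.

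With 1 array left out and features then needing 2 values, the counts ranged from 0 to 181 above and 0 to 196 below, and from 0 to 2 and 0 to 3 for the glycolytic genes. The zeros came without array 4 (limma, 252 at an unadjusted p under 0.05), where TDH1, FBA1, CDC19, PGK1 and ENO1 had adjusted p of 0.0626, 0.0707, 0.0748, 0.0813 and 0.103; without array 3, 45 lay above and 34 below, and ENO1 did not pass (adjusted p = 0.0569). Kept to the same 596 features, a choice added after the data were seen, the counts were 45 to 168 above and 41 to 174 below (83 and 88 without array 3), and FBA1, PGK1, CDC19 and TDH1 passed without any 1 array, while ENO1 did not without array 4 (limma, adjusted p = 0.0636). FBA1, PGK1 and CDC19 had no ratio on array 1, so leaving it out took away none of their values. Each other omission left these genes 2 values. With 1 array left out and features needing 2 values, PDC1 ranged from -1.22 to 0.27 and HXK2 from -0.12 to 1.89. PDC1 had 0.27 without array 1 when features needed 2 values and 0.19 with the same features, HXK2 -0.12 and -0.19 without array 4, and ENO2 -0.0054 without array 3 with the same features. With probes kept apart 2 glycolytic genes lay above and 2 below. The other scalings, limits, the term for the channel assignment, the random block and the robust prior kept all 5 calls of glycolytic genes.

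The cause of these changes was not tested, beyond the fewer arrays or features of each fit. Each ratio already sets precipitated RNA against total RNA on the same array. No comparison between groups of arrays was possible because all 4 arrays form 1 group. The number of arrays and the probes without a ratio limit precision, and signal over background was not used here.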
